A study of Mus musculus with 6 samples.

Results

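The genes described here are the keratins and other genes of the skin epithelium, read library by library in mouse gastrocnemius, a muscle of the calf. They were chosen by symbol: every protein-coding gene whose symbol starts with *Krt*, *Krtap*, *Dsg*, *Dsc*, *Lce* or *Sprr* followed by a digit, and 15 more named genes of the epidermis, among them *Dsp*, *Perp*, *Lor*, *Sfn* and *Trp63*. The annotation holds 170 such genes, and 45 of them are among the 12353 genes of the deposited table. The set was selected on these same values, because the library called Sample 6 held far more of them than the other 5, so the level of Sample 6 against the rest is given as a description and is not tested.

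The series compares 3 wild-type (Nogo+/+) with 3 Nogo knockout (Nogo-/-) mice. Nogo is the protein product of *Rtn4*. Each mouse gave 1 library of polyadenylated RNA from whole gastrocnemius tissue, with no treatment named in the labels, and the knockout was carried by the whole animal. Samples 1, 2 and 3 are Nogo+/+ and Samples 4, 5 and 6 are Nogo-/-. The age, sex and strain of these 6 mice were not given in the sources used here. Values are FPKM, fragments per gene scaled to transcript length and library depth, and can be compared between genes. The libraries held about 13474000 to 14436000 fragments each, as recovered from the steps between low values. *Rtn4* was at 414 to 429 FPKM in the Nogo+/+ libraries and at 0.312 to 0.423 FPKM in the Nogo-/- libraries (limma, log2 fold change −8.40, adjusted p = 2.1e-10), and all 10 genes of a skeletal muscle fiber list were abundant, with a summed level of 34950 to 37726 FPKM in each library.

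The epidermis is a stratified epithelium in which keratinocytes divide in a basal layer and differentiate as they move outward. Keratins are intermediate filament proteins that assemble as pairs of a type I and a type II chain, and the pair changes from *Krt5* with *Krt14* in the basal layer to *Krt1* with *Krt10* above it. Desmosomes join the cells to each other, and in the outermost layers loricrin and the late cornified envelope proteins are cross-linked into the envelope that forms the barrier of the skin. None of these structures is a part of the muscle fiber, although single keratins and desmosomal proteins are also made outside stratified epithelia.

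Reference sequence upstream of 4 members is shown because their genes stand for the basal layer (*Krt5*), the suprabasal layers (*Krt10*), the cornified envelope (*Lor*) and the secreted proteins of differentiating keratinocytes (*Krtdap*), and all 4 were highest in Sample 6. Each sequence is the 250 bases before the start site in RefSeq on GRCm38.p6, written 5′ to 3′ on the strand of the gene. Capitals mark matches, on either strand, to the AP-1 motif TGANTCA and to the TATA box TATAAA, and matches to the AP-2 motif GCCNNNGGC would be marked as well. *Krt5* lies at chr15:101712906-101713155 (minus strand), *Krt10* at chr11:99389365-99389614 (minus strand), *Lor* at chr3:92083143-92083392 (minus strand) and *Krtdap* at chr7:30787655-30787904 (plus strand).
Krt5: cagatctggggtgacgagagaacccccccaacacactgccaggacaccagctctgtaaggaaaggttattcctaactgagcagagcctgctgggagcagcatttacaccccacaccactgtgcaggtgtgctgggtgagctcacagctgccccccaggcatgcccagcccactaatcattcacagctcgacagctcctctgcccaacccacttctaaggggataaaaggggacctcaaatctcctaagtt
Krt10: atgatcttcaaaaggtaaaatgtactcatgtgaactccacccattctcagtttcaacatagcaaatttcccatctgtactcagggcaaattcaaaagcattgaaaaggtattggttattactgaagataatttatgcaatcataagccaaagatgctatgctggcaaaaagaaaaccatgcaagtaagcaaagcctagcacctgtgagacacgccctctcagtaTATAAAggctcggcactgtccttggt
Lor: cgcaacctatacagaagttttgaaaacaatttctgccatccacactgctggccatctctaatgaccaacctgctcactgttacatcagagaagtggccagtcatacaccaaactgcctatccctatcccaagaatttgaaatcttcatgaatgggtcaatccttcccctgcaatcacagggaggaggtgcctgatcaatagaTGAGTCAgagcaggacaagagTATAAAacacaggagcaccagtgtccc
Krtdap: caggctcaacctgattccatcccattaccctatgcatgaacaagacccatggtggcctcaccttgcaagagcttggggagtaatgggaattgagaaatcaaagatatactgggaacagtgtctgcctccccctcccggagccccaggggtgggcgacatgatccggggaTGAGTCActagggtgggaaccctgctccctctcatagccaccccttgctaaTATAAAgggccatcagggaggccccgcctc
The TATA match began 26 bases before the start in *Krt10*, 27 in *Lor* and 30 in *Krtdap*. An AP-1 match began 48 bases before the start of *Lor* and 81 before that of *Krtdap*. The window of *Krt5* held none of the 3 motifs. Of the 45 members, 29 had a window in this table. The AP-1 motif was found in 5 of these 29 genes (17.2%) and in 7.82% of all 27025 genes with a window, the TATA box in 6 (20.7%) and in 14.3%, and the AP-2 motif in 1 (3.45%) and in 15.4%. These matches describe the letters of the windows and were not tested.

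Summed over the 45 members, the level was 16.6 FPKM in Sample 1, 39.9 in Sample 2, 18.1 in Sample 3, 19.0 in Sample 4, 31.8 in Sample 5 and 548 in Sample 6. Sample 6 thus stood apart from every other library of either genotype, and Samples 2 (Nogo+/+) and 5 (Nogo-/-) lay above the remaining 3. The members made up 0.134% of all FPKM in Sample 6 and 0.00410% to 0.00995% in the other 5 libraries. Counted as fragments, they took an estimated 10083 in Sample 6, or 0.0734% of the library (95% exact binomial interval 0.0720% to 0.0748%, counting error only), and 415 to 849 in each of the others. In bulk tissue, more cells of a type and more RNA per cell cannot be told apart.

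**Figure D1:**
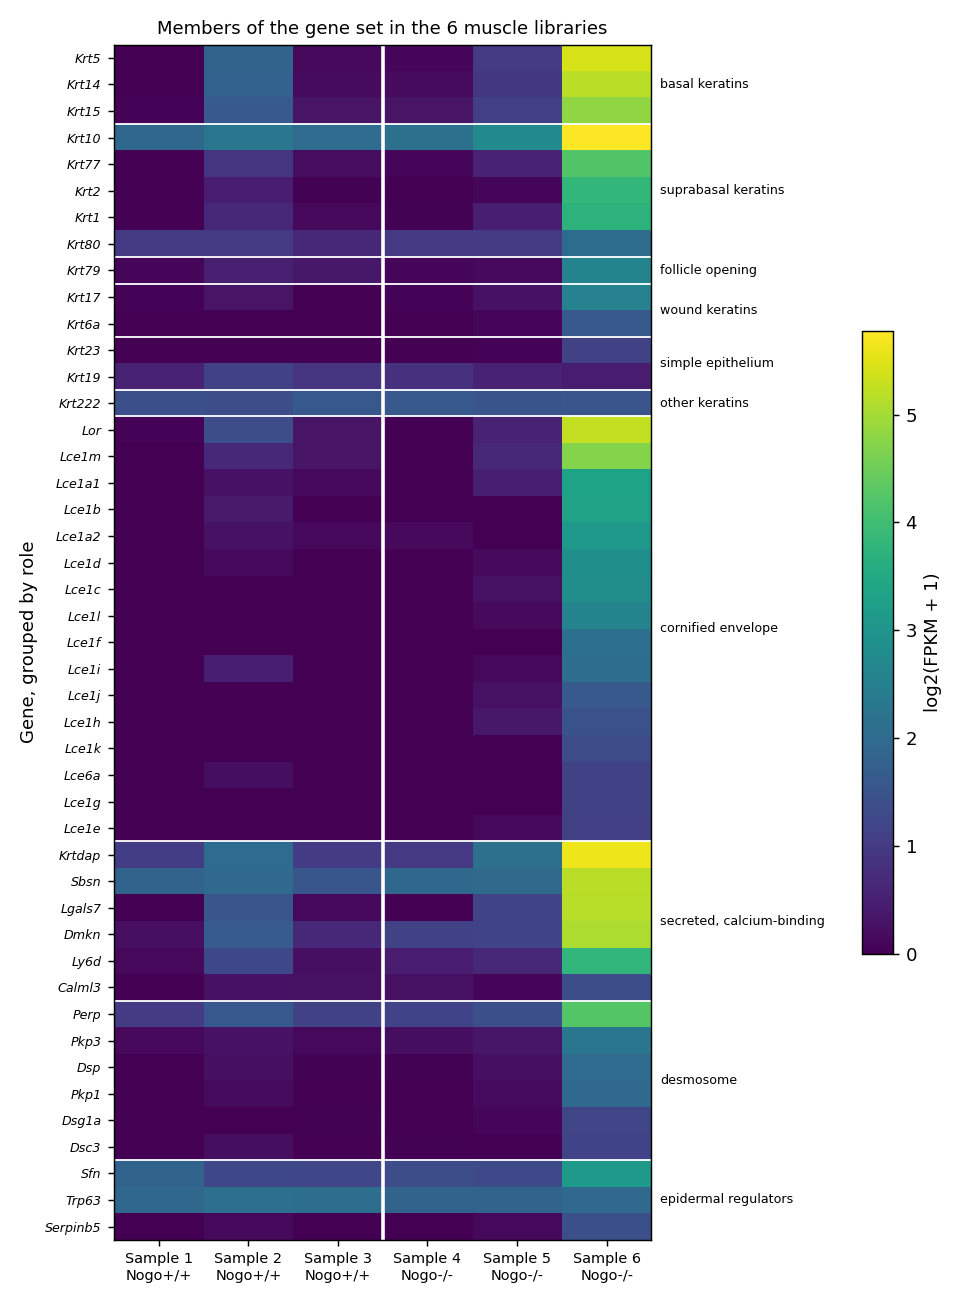
Heat map of the 45 members (rows, grouped by role) in the 6 libraries (columns, Nogo+/+ on the left and Nogo-/- on the right), colored by log2(FPKM + 1). Sample 6 is the brightest column for 42 of the 45 genes, Samples 2 and 5 show a fainter version of it, and *Trp63* and *Krt222* are even across the row.

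Sample 6 was the highest library for 42 members. Among these 42, the next highest was Sample 2 for 22 members, Sample 5 for 16 and Sample 1 for 1 (*Sfn*), and 3 members were listed at 0 in all other libraries. Every member was above 0 in Sample 6, whereas 10 were at 0 in Sample 2, 7 in Sample 5, 17 in Sample 3, 21 in Sample 4 and 28 in Sample 1. The table holds only genes that reached an FPKM of 1 in at least 1 library, and 30 of the 45 members reached it in Sample 6 alone, at 1.12 to 24.98 FPKM there and at most 0.991 FPKM elsewhere. These 30 had to differ between Sample 6 and the rest, so the counts above describe a filtered list. The other 15 members reached 1 FPKM in at least 1 of Samples 1 to 5.

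Basal layer keratins were among the most abundant members of Sample 6 and nearly missing from Sample 1. *Krt5*, the type II keratin of basal keratinocytes, was at 0, 2.56 and 0.0945 FPKM in the Nogo+/+ libraries and at 0.0655, 1.01 and 42.0 FPKM in the Nogo-/- libraries. These values rest on 0, 76, 3, 2, 32 and 1269 fragments. Its type I partner *Krt14* was at 0, 2.53, 0.122, 0.128, 0.920 and 35.1 FPKM in Samples 1 to 6, and again Sample 6 was highest, followed by Samples 2 and 5. *Krt15*, a further basal keratin that also marks stem cells of the hair follicle, was at 0.0426, 2.07, 0.244, 0.243, 1.14 and 27.1 FPKM. The groups overlapped for all 3 genes, since Sample 2 lay above Samples 4 and 5. The ratio of *Krt5* to *Krt14* was 1.20 in Sample 6, 1.01 in Sample 2 and 1.09 in Sample 5, so the basal pair stood near equal levels in the 3 libraries that held most of it.

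Suprabasal keratins were as high in Sample 6 as the basal ones, with a summed level of 100.05 FPKM against 104 FPKM. *Krt10*, the type I keratin of the spinous layer, was the most abundant member and was found in every library, at 2.84, 3.85, 3.06, 3.37, 5.66 and 53.9 FPKM in Samples 1 to 6. Its type II partner *Krt1* was at 0, 0.572, 0.0846, 0.0293, 0.394 and 12.4 FPKM. The ratio of *Krt1* to *Krt10* was 0.231 in Sample 6, 0.149 in Sample 2, 0.0696 in Sample 5 and at most 0.0277 in the other 3, so the low level of *Krt10* in Samples 1, 3 and 4 came with almost no *Krt1*. *Krt77* was at 0, 0.858, 0.142, 0.0491, 0.495 and 17.5 FPKM. *Krt2*, a type II keratin of the upper epidermis, was at 0, 0.368, 0.0265, 0, 0.0528 and 13.1 FPKM, the last of these on 470 fragments and that of Sample 5 on 2. *Krt80*, which is made in many epithelia, differed from these, since it lay between 0.586 and 0.991 FPKM in Samples 1 to 5 and at 3.13 FPKM in Sample 6.

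Fewer of the follicle, wound and simple epithelium keratins were listed, and those at lower levels. *Krt79*, a keratin of the follicle opening, reached 5.07 FPKM in Sample 6, *Krt17* 4.91 FPKM on 105 fragments and *Krt6a* 2.04 FPKM, with at most 0.430 FPKM for any of the 3 genes elsewhere. *Krt6a* and *Krt6b* are close copies, and only the former is listed, so their reads may have been assigned unevenly. None of the 22 keratins of the inner root sheath and hair shaft and none of the 57 hair keratin-associated proteins was listed. Of the 6 simple epithelium keratins, *Krt23* and *Krt19* were listed. *Krt19*, which is known from simple epithelia and from the costameres of muscle fibers, was at 0.483, 1.18, 0.835, 0.777, 0.492 and 0.368 FPKM, and was lowest in the library where most other keratins were highest.

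Cornified envelope precursors held 121 FPKM in Sample 6 and at most 3.60 FPKM elsewhere. *Lor*, which encodes loricrin, the main protein of the envelope, was at 0.0407, 1.58, 0.233, 0, 0.466 and 36.8 FPKM in Samples 1 to 6. These values rest on 1, 38, 6, 0, 12 and 900 fragments. All 14 genes of the *Lce1* family, late cornified envelope proteins, were listed, against 0 of 6 of the *Lce3* family and 0 of 15 small proline-rich (*Sprr*) genes. The *Lce1* genes were at 1.12 to 24.98 FPKM in Sample 6 and at most 0.592 FPKM in any other library. Sample 5 showed 9 of the 14 above 0, Sample 2 showed 6, Sample 3 showed 3, Sample 4 showed 1 and Sample 1 none. *Lce1m* was the most abundant of them, at 0, 0.592, 0.238, 0, 0.553 and 24.98 FPKM. The *Lce1* genes are near-identical neighbors, so how their reads divide between the copies is uncertain and their sum is the firmer value. That sum was 82.5 FPKM in Sample 6, 2.02 in Sample 5, 1.87 in Sample 2, 0.433 in Sample 3, 0.101 in Sample 4 and 0 in Sample 1.

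**Figure D2:**
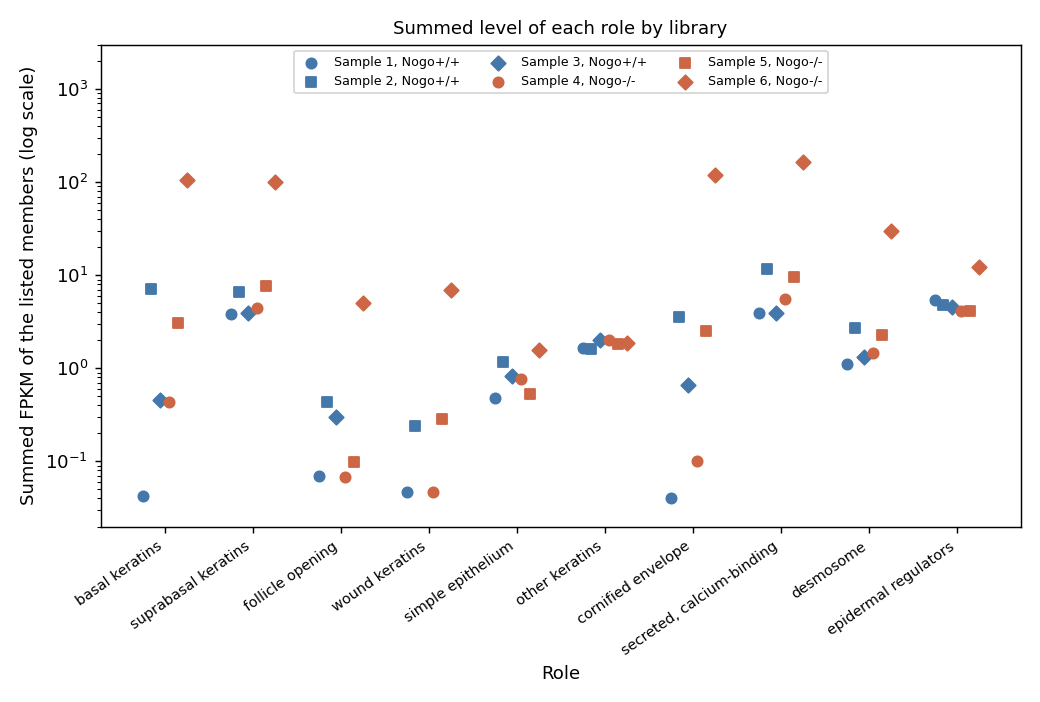
Summed FPKM of the listed members of each role (log scale) in each of the 6 libraries, with Nogo+/+ in blue and Nogo-/- in orange. Sample 6 is far above the rest for basal, suprabasal, cornified envelope, secreted and desmosome genes, whereas the "other keratins" role (*Krt222*) shows no gap, and a library at 0 has no point.

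The secreted and calcium-binding proteins of differentiating keratinocytes formed the most abundant role in Sample 6, with 166 FPKM, and all 6 of its genes were listed. *Krtdap*, keratinocyte differentiation-associated protein, was at 1.06, 3.08, 1.01, 0.950, 3.38 and 48.9 FPKM in Samples 1 to 6. *Sbsn*, or suprabasin, was at 2.57, 2.92, 1.90, 2.81, 3.02 and 35.1 FPKM. The 5 libraries below Sample 6 were thus close together for *Sbsn*, unlike for the basal keratins. *Lgals7*, galectin-7 of stratified epithelia, was at 0, 1.86, 0.0918, 0, 1.28 and 34.5 FPKM. *Dmkn*, or dermokine, was at 0.183, 2.13, 0.594, 1.20, 1.28 and 32.6 FPKM. *Ly6d*, a surface protein of keratinocytes, was at 0.0973, 1.39, 0.186, 0.387, 0.557 and 12.9 FPKM. The latter 3 genes fell to near 0 in Sample 1, where *Krtdap* and *Sbsn* did not.

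Of the 13 desmosome genes of the set, 6 were listed. *Perp*, a membrane protein of desmosomes, was present in all libraries, at 1.00, 2.01, 1.17, 1.25, 1.66 and 17.9 FPKM. The plaque proteins *Pkp3*, *Dsp* and *Pkp1* reached 3.80, 3.06 and 2.91 FPKM in Sample 6, and the desmosomal cadherins *Dsg1a* and *Dsc3* 1.30 and 1.24 FPKM. None of these 5 exceeded 0.274 FPKM in another library. Most desmosome and plakin genes outside the set were not raised in Sample 6. A list of *Jup*, *Pkp4*, *Ppl* and *Pkp2* summed to 40.9 to 46.2 FPKM in Samples 1 to 5 and to 42.2 FPKM in Sample 6, with *Jup*, which also serves junctions outside epithelia, at 33.4 FPKM in Sample 6 and 33.7 to 37.7 FPKM elsewhere. *Jup* makes up most of this sum. The plakin *Ppl* was highest in Sample 6, but it was also higher in every Nogo-/- library than in every Nogo+/+ library. It was at 0.579 to 0.750 FPKM in Nogo+/+ and at 1.59, 1.23 and 2.22 FPKM in Samples 4 to 6 (limma, adjusted p = 0.0603). Groups that did not overlap were found for 25.9% of all genes.

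The 3 listed epidermal regulators differed among themselves. *Trp63*, which encodes the p63 transcription factor of stratified epithelia, was at 2.85, 3.30, 3.26, 2.56, 2.604 and 2.95 FPKM, so Sample 6 lay within the range of the other libraries. *Krt222*, a keratin-like gene, of another role, was also even, at 1.67, 1.61, 2.03, 2.04, 1.82 and 1.88 FPKM. *Sfn*, or 14-3-3 sigma, was at 2.56, 1.38, 1.33, 1.56, 1.41 and 7.74 FPKM, and was the single member whose next highest library was Sample 1. *Serpinb5*, or maspin, was at 1.66 FPKM in Sample 6 and at most 0.115 FPKM elsewhere. In all, 8 members were at 0.5 FPKM or more in every library, and they were *Krt10*, *Krtdap*, *Sbsn*, *Perp*, *Sfn*, *Krt80*, *Trp63* and *Krt222*.

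Samples 2 and 5 held most of the members at a small part of their level in Sample 6, and that part varied between members. Among the 15 members at 10 FPKM or more in Sample 6, the level in Sample 2 was 2.37% to 11.2% of that in Sample 6 (median 6.30%), and the level in Sample 5 was 0.403% to 10.5% (median 3.71%). By role, Sample 2 held 6.87% of the basal keratin level of Sample 6, 6.62% of the suprabasal, 7.01% of the secreted and 2.98% of the cornified envelope level. Sample 5 held 2.94%, 7.59%, 5.78% and 2.06% of these. The basal keratins were thus higher in Sample 2. The higher suprabasal sum of Sample 5 came from *Krt10*, since the other suprabasal keratins summed to 1.93 FPKM there and to 2.78 FPKM in Sample 2. Samples 1, 3 and 4 held at most 0.442% of the basal keratin level. Across the 45 members, Spearman's rho with Sample 6 was 0.70 for Sample 2, 0.62 for Sample 5, 0.49 for Sample 3, 0.33 for Sample 4 and 0.28 for Sample 1. It was 0.81 between Samples 2 and 5. Genes are not independent replicates, the members were listed largely through Sample 6, and the low values of Samples 1, 3 and 4 rest on few fragments, so these figures are descriptions only.

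**Figure D3:**
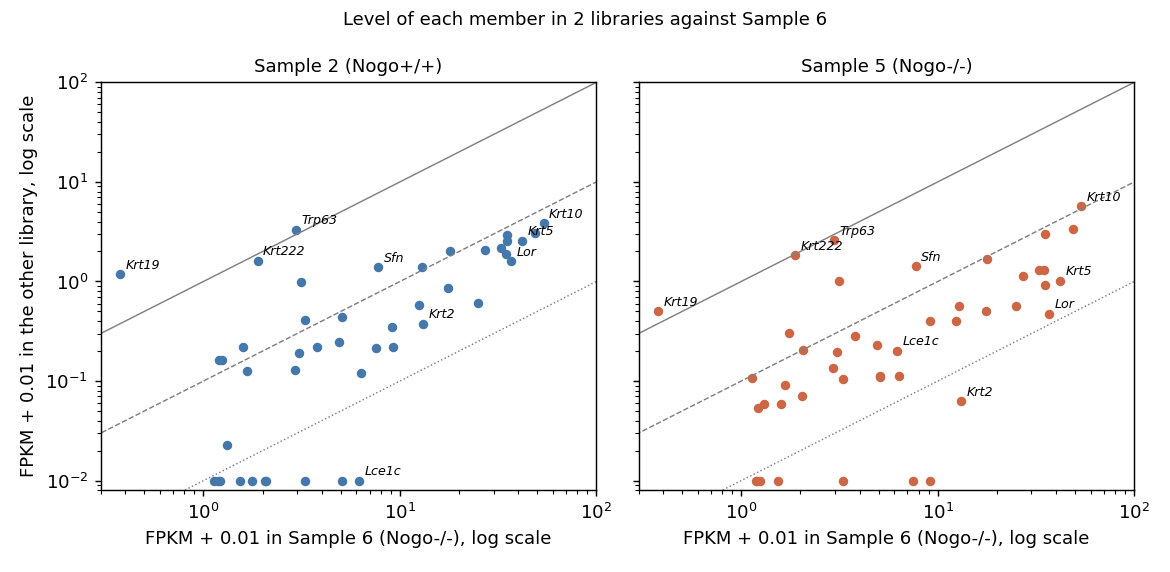
FPKM + 0.01 of each member in Sample 2 (left) and Sample 5 (right) against Sample 6, on log axes; the solid line marks equal levels, the dashed line a level 10 times and the dotted line a level 100 times lower. Between the dashed and dotted lines lie 24 members in Sample 2 and 30 in Sample 5, *Trp63* and *Krt19* lie above the solid line in Sample 2 with *Krt222* close to it, and points at the bottom are listed at 0.

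Per member, the level in Sample 6 was a median of 14.4 times that of the next highest library, over the 42 members above 0 in another library (range 0.313 for *Krt19* to 57.9). Against the median of the other 5, the ratio was 77.6 at the median of the 29 members for which that median was above 0. The latter ratio divides by values near 0 and is the less firm of both. No other library held genes in this way. With 1 added to each FPKM, 104 genes of the whole table were at least 2 times as high in Sample 6 as in each other library, and 39 of these were members. The same count was 0 for Samples 1 and 3, 1 for Sample 4, 8 for Sample 2 and 9 for Sample 5, with no member among them.

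The comparison of the genotypes asked whether the members differed between Nogo-/- and Nogo+/+ muscle, and none passed the test. Limma called 0 of the 45 members at an adjusted p under 0.05, where 4.64% of all 12353 genes were called. At an unadjusted p under 0.05 there were 0 members, and the share of all genes at that threshold was not taken. The lowest adjusted p among the members was 0.312 (*Trp63*). The mean was higher in Nogo-/- for 43 members, with a median log2 fold change of 0.71 on the log2(FPKM + 1) scale, against −0.0067 over all genes. The choice of members sets this direction for most of them, because Sample 6 is a Nogo-/- library and 30 members entered the table through it alone, and the same choice widens the spread within Nogo-/-, so nothing is read from the count of calls. Without Sample 6, 3 members were at 0 in every library, and of the other 42 the mean FPKM was higher in Nogo-/- for 22 and lower for 20. The median log2 fold change was then −0.0015, and limma called 0 members at an adjusted p under 0.05, where 3.40% of all genes were called. At an unadjusted p under 0.05 there was 1 member, again without a share over all genes. *Trp63* alone then had groups that did not overlap, with ties at 0 counted as overlap. The share over all genes was not taken for the libraries without Sample 6, so nothing is read from this.

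Single genes show what the spread did to the test. *Krt5* averaged 0.884 ± 1.45 FPKM (SD, n = 3) in Nogo+/+ and 14.4 ± 24.0 FPKM in Nogo-/-. Its log2 fold change was 1.499 ± 1.20 (SE), with an adjusted p of 0.543 from limma, and was −0.11 ± 0.53 without Sample 6. *Krt10* averaged 3.25 ± 0.529 FPKM in Nogo+/+ and 20.97 ± 28.5 FPKM in Nogo-/-, a log2 fold change of 1.42 ± 0.80 (limma, adjusted p = 0.370) that became 0.29 ± 0.19 without Sample 6 (adjusted p = 0.467). *Trp63*, the even member, averaged 3.14 ± 0.251 FPKM in Nogo+/+ and 2.70 ± 0.210 FPKM in Nogo-/-. Its log2 fold change was −0.19 ± 0.10 (limma, adjusted p = 0.312), and −0.27 ± 0.10 without Sample 6 (adjusted p = 0.209), where both Nogo-/- libraries lay below the 3 Nogo+/+ libraries. In the full data, no member had every Nogo-/- library above every Nogo+/+ library and none had every one below, where 25.9% of all genes had 1 or the other. A member at 0 in Sample 4 and highest in Sample 6 could have neither. As 21 members were at 0 in Sample 4, nothing is read from this count.

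**Figure D4:**
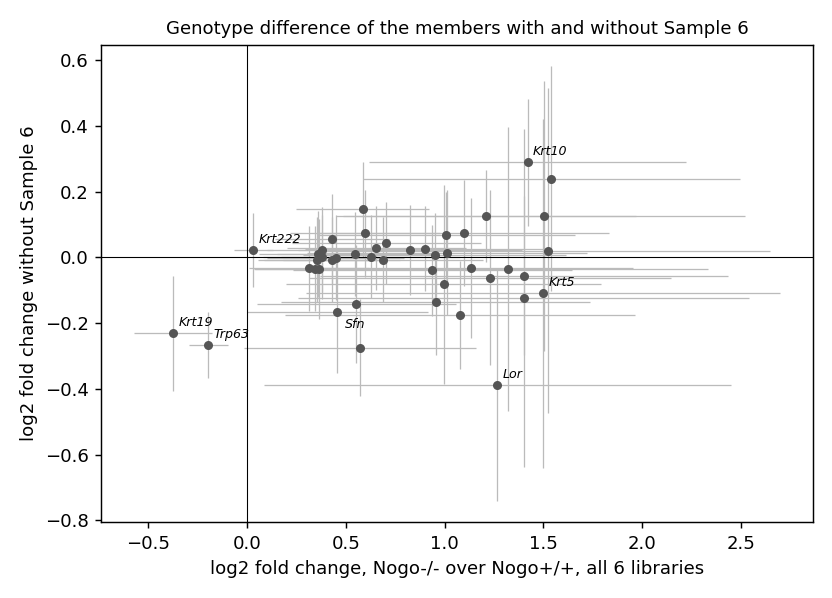
Log2 fold change (Nogo-/- over Nogo+/+) of each of the 45 members with all 6 libraries (horizontal axis) and without Sample 6 (vertical axis), as points with standard errors from limma. With Sample 6, 43 points lie right of 0, and without it the points scatter about 0, the 3 members at 0 FPKM in all 5 remaining libraries included.

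Genes outside the set that stood out in Sample 6 were ranked by size, so their level there is a description. Among protein-coding genes that are no members, the 15 with the highest ratio of Sample 6 to the next highest library, with 1 added to each FPKM, were *Calm4*, *Ly6g6c*, *Fam25c*, *Crct1*, *Asprv1*, *Serpina3b*, *2310050C09Rik*, *Fcgbp*, *Anxa8*, *Gm94*, *S100a14*, *Elovl4*, *Psapl1*, *Klk7* and *Serpina3j*. That ratio ran from 11.4 for *Calm4* to 4.37 for *Serpina3j*. *Calm4*, a calmodulin-like protein of differentiating keratinocytes, was at 0.158, 0.968, 0.377, 0.236, 0.828 and 21.4 FPKM in Samples 1 to 6. *Fam25c* was the most abundant of the 15, at 0.887, 2.72, 1.02, 1.59, 2.71 and 28.4 FPKM. Sample 2 was the next highest library for 12 of the 15 and Sample 5 for 3. Over all 65 protein-coding genes outside the set that were at least 2 times as high in Sample 6 as in each other library, with 1 added to each FPKM, the next highest was Sample 2 for 38, Sample 5 for 13 and another library for 14.

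Lists of other epithelial genes moved in part. Of 24 cornified envelope and barrier genes outside the set, 11 were listed, and their sum was 4.82 to 6.75 FPKM in Samples 1 to 5 and 51.1 FPKM in Sample 6, which was the highest library for all 11. *Crct1* reached 8.69 FPKM, *Elovl4*, an enzyme of the very long fatty acids of the skin barrier, 7.88 FPKM, *S100a14* 7.85 FPKM and *Asprv1*, a protease of the cornified layer, 6.80 FPKM. *Flg*, *Ivl* and *Tgm1*, which encode filaggrin, involucrin and the cross-linking transglutaminase, were not among the listed genes. Of 17 general epithelial genes, 6 were listed, at a sum of 2.01 to 2.49 FPKM in Samples 1 to 5 and 11.8 FPKM in Sample 6. The tight junction gene *Cldn1* was at 2.59 FPKM there and at 1.34 to 1.81 FPKM elsewhere, and it made up most of the lower sums. The cadherin *Cdh1* was at 1.77 FPKM and *Rab25* at 1.68 FPKM in Sample 6. The listed general epithelial genes other than *Cldn1*, and *Col17a1* below, were under 1 FPKM in Samples 1 to 5, so they too were listed through Sample 6 alone. In the basement membrane list, the hemidesmosome collagen *Col17a1* was at 5.42 FPKM in Sample 6 and at most 0.571 FPKM elsewhere, whereas *Itga6* and *Itgb4* lay within the range of the other libraries.

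Most listed sebaceous gland genes were highest in Sample 6, and the listed genes of other skin cells were not. Of 7 sebaceous genes, 5 were listed, with a sum of 0.875 to 2.37 FPKM in Samples 1 to 5 and 11.8 FPKM in Sample 6. *Far2* reached 3.39 FPKM, *Scd3* 3.39 FPKM and *Elovl3* 2.43 FPKM in Sample 6, against at most 0.362 FPKM for any of the 3 genes elsewhere, and *Mc5r* was at 1.12 FPKM, within the range of 0.682 to 1.85 FPKM of the other libraries. The listed sebaceous genes other than *Mc5r* were under 1 FPKM in Samples 1 to 5, so they were listed through Sample 6 alone. None of 13 hair follicle genes, 5 genes of Langerhans and T cells, 6 of mammary and sweat gland and 4 of mesothelium was listed. A gene that is not listed is known only to have stayed under 1 FPKM in every library. Of 8 melanocyte genes only *Mitf* was listed, at 2.68 FPKM in Sample 6 and 2.97 to 3.56 FPKM elsewhere. All 11 genes of connective tissue fibroblasts were listed, and their sum was lower in Sample 6, at 485 FPKM, than in any other library (554 to 725 FPKM). *Dcn*, *Col3a1*, *Col1a2* and *Col1a1* make up most of this sum. *Twist2*, *Dpt*, *Mfap5*, *Dpp4* and *Lum* lay within the range of the other libraries, and the other listed genes were lowest in Sample 6. That range mixes the genotypes. *Twist2* was at 0.417 to 0.557 FPKM in Nogo+/+ and 1.04 to 1.35 FPKM in Nogo-/-, and *Dpp4* at 0.683 to 0.871 and 0.978 to 1.15 FPKM. For the other listed fibroblast genes the groups overlapped. The 6 adipocyte genes were highest in Sample 4, at 520 FPKM, and at 207 FPKM in Sample 6. Of these, *Cidec*, *Plin1* and *Lep* were higher in every Nogo-/- than in every Nogo+/+ library, and the rest overlapped. Groups that did not overlap were found for 25.9% of all genes, and limma called no fibroblast or adipocyte gene of the lists. The members of Sample 6 thus came with sebaceous and barrier genes, mostly listed through Sample 6 alone, and with no hair follicle gene of the list. The summed fibroblast and adipocyte level of Sample 6 was at or below that of most other libraries. That level was high in every library, so it cannot show a small addition. Whether skin collected with the muscle had a part in these values was not tested.

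**Figure D5:**
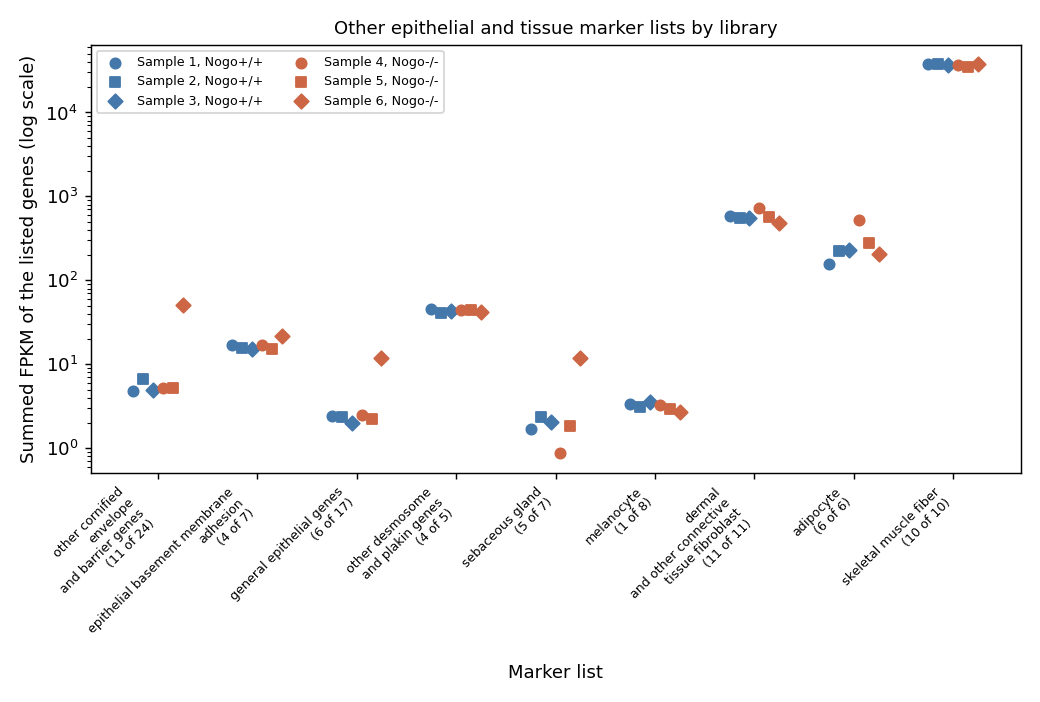
Summed FPKM of the listed genes of 9 marker lists (log scale; listed genes of all genes in parentheses) in each library, Nogo+/+ in blue and Nogo-/- in orange. Sample 6 is above the other libraries for barrier, basement membrane, general epithelial and sebaceous genes and at or below them for fibroblast and melanocyte genes.

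The members lie on 10 chromosomes, and most of them in a few clusters. A stretch of 939 kb on chromosome 3 (92080271 to 93019060, GRCm38) holds 16 members, namely *Lor* and the 15 listed *Lce* genes. The 4 other protein-coding genes listed within it, *Crct1*, *Kprp*, *2310050C09Rik* and *2310046K23Rik*, were each at least 2 times as high in Sample 6 as in every other library, with 1 added to each FPKM. *Crct1*, *Kprp* and *2310050C09Rik* were at most 0.288 FPKM outside Sample 6, so they were listed through it alone and had to be highest there. Neighbors that were not listed could not count against this pattern. *Kprp* and *2310046K23Rik* were named after their values were seen. The type I keratins, *Krt222* among them, span chromosome 11 from 99232761 to 100261029 with 7 members, and the type II keratins chromosome 15 from 101347444 to 101940324 with 7. *Sbsn*, *Dmkn* and *Krtdap* are neighbors within 39.6 kb of chromosome 7 (30751471 to 30791097). Neither the keratin clusters nor this one held another listed protein-coding gene. *Krt222* and *Krt19* lie in the type I cluster. *Krt222* was even across the libraries and *Krt19* was lowest in Sample 6, so location in a cluster did not go with the pattern in every case.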

How the data were processed

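Polyadenylated RNA from the gastrocnemius of 3 Nogo+/+ and 3 Nogo-/- mice was sequenced by the authors as stranded libraries. Per the methods and the submitters' processing notes, the reads were processed with CASAVA 1.8.2 and cutadapt 1.4.2, aligned to GRCm38.p6 with STAR 2.6.1 and quantified with Cufflinks 2.2.1. The authors deposited these values as FPKM for genes that reached an FPKM of 1 in at least 1 library. A further 6 columns of log2 values were not used. Columns were assigned to a genotype from the headings of the study's supplementary table, and they carry no replicate number.

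Gene symbols came from GENCODE M21 (12347 of 12353 genes matched). FPKM were quantile-normalized, and log2(FPKM + 1) was fitted over all genes with limma 3.58.1 in R 4.3.3 (trend, no covariates), with Benjamini-Hochberg adjustment and a threshold of 0.05. Levels are unnormalized FPKM. A fold change on this scale understates that of low genes. The fit was tested on simulated data. Depth was the number of fragments that placed most low values of genes with 1 transcript, taken up to 30 fragments, within 0.1 of a whole number (95.2% to 96.5% of 318 to 370 values per library, where chance gives 20.0%). Fragments are given for genes with 1 transcript, and totals over members use the median transcript length. FPKM are not counts, so no count test was run.

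The members and lists were chosen with earlier results of these data known. Named were members at 10 FPKM or more in any library or 1 in any of Samples 1 to 5, with the rest by range, the 15 other protein-coding genes most raised in Sample 6, and up to 4 genes of each marker list with the highest FPKM. A few genes that this rule takes in are not reported here. Members and marker list genes named outside this rule, *Flg*, *Ivl* and *Tgm1* among them, were chosen after values were seen. Alternatives were another pseudocount, a filter on mean FPKM, no quantile normalization, limma without trend or with sample weights, and each library left out. Python 3.11.15 was used for tables, together with pandas 2.3.3, NumPy 2.4.6 and SciPy 1.17.1, and matplotlib 3.10.9 for plots.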

Additional observations from a re-analysis of the deposited data

How the results depend on the processing

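Limma called 0 of the members with all 6 libraries, with a pseudocount of 0.1, without quantile normalization, without trend, with sample weights, with a mean FPKM of at least 1 (25 members left) and without each library in turn. At an unadjusted p under 0.05 there were 5 members without Sample 4, 2 without Sample 1, 1 without Sample 6 and 0 in the others. The share of all genes at this unadjusted threshold was not taken, so nothing is read from these counts. Leaving out single libraries gave 22 to 43 members with a fitted log2 fold change above 0, the lowest without Sample 6, where 3 members were at 0 in every library. Without Sample 6 the log2 fold changes of *Krt5* and *Krt14* reversed, and without Sample 2 that of *Krt222*; leaving out single libraries gave −0.11 to 2.49 for *Krt5*, −0.12 to 2.32 for *Krt14* and −0.0076 to 0.10 for *Krt222*. None of these passed the test in any setting. The share of Sample 6 held by the members was 0.126% without simple epithelium keratins and desmosome genes and 0.0734% of fragments, where each gene counts by its median transcript length. Against the median of the other 5, the median ratio of Sample 6 was 77.6, and 29.6 on quantile-normalized FPKM. It was 27.2 over the 15 members at 1 FPKM or more in any of the other 5. Against the highest of the other 5, the median ratio was 14.4. No paired analysis was possible because the columns carry no replicate numbers. Levels under about 0.1 FPKM rest on 1 to 4 fragments in the members with 1 transcript, and the p-values measure the spread between these 3 mice per group.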
